A study of Macaca mulatta with 16 samples.

Results

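The EGF receptor family and its ligands were followed in the lungs of fetal rhesus macaques, as the levels of 4 receptor genes (EGFR, ERBB2, ERBB3 and ERBB4) and 6 ligand genes (AREG, EREG, HBEGF, TGFA, BTC and NRG1). The genes were taken by symbol, each of the 10 matched 1 row of the 22515 rows of the count table, and all 10 were among the 19199 genes tested. Lung RNA of 16 fetuses was sequenced, 1 library per animal. The study asked how inflammation before birth, alone or with a low dose of corticosteroid, changes the maturation of the preterm lung.

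The 4 preterm controls (animals 092, 101, 113 and 209) received no intervention and were delivered on days 131 to 135 of gestation. The 4 LPS 16h animals (026, 029, 035 and 038) received 1 mg of lipopolysaccharide (LPS), the endotoxin of Gram-negative bacteria, into the amniotic fluid and were delivered 16 hours later, on days 130 and 131. The 3 LPS 5d animals (239, 240 and 242) received the same dose and were delivered 5 days later, on days 131 to 134. The 3 LPS + Beta-Ac 5d animals (248, 249 and 255) also had 0.125 mg/kg of betamethasone-acetate, a slowly released corticosteroid, injected into the muscle of the dam, and were delivered on days 131 and 132. The 2 term controls (200 and 201) were delivered without intervention on days 156 and 157. All LPS + Beta-Ac animals carry both exposures, so they hold no measure of Beta-Ac by itself. Values per animal are given below in the order of these numbers.

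The 4 receptors are tyrosine kinases of the cell surface that act in pairs. EGFR binds AREG, EREG, HBEGF, TGFA and BTC, ERBB4 binds several of these and the neuregulins, ERBB3 binds neuregulins but has little kinase activity of its own, and ERBB2 has no known ligand and serves as the partner of the others. The ligands are made as membrane proteins and are cut free by proteases such as ADAM17, after which the receptors signal through RAS and ERK, PI3K and AKT, and STAT3. In the lung the family is known for growth and branching of the airway epithelium, for repair after injury, and for the exchange between fibroblasts and type 2 cells, in which NRG1 promotes surfactant synthesis.

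Levels are given as CPM (counts scaled to a common library total) after TMM scaling (trimmed mean of M values), with the SD over animals. Transcript lengths were not used, so CPM values are compared between animals and not between genes. A gene is named called where a Benjamini-Hochberg adjusted p in limma was below 0.05 and the fold change at least 2. Library totals were 20169363 to 28348816 counts outside the LPS 16h group and 30596371 to 48052891 counts within it, and the TMM factors were 0.995 to 1.12 outside and 0.857 to 0.92 within it. Depth and the LPS 16h group therefore cannot be told apart, and the calls of the 10 members in that group were also made with every library thinned to the smallest total. The pathway and marker genes were not tested in thinned libraries. In bulk tissue, fewer cells of a type and less RNA per cell cannot be told apart either. All comparisons with preterm controls use the same 4 control animals. The type 2 cell marker SFTPC, the type 1 cell marker AGER and the lung epithelial regulator NKX2-1 had reads in every group.

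At 16 hours all the called members were ligands. AREG, EREG and NRG1 were called higher in LPS 16h animals than in preterm controls, which is 3 of the 10 genes, where 14.4% of all genes tested were called. EREG passed the filter on low values only through the LPS 16h animals and so had to differ, and without it 2 of 9 were called. HBEGF, TGFA and ERBB3 rose and ERBB2 fell by less than 2-fold with an adjusted p below 0.05. That makes 7 of 10 genes at any fold, EREG among them, beside 38.3% of all genes tested. At 5 days none of the ligands differed from preterm controls at an adjusted p below 0.05, while the receptor ERBB3 was higher in both groups. EGFR passed with LPS (log2 0.93, adjusted p 0.0386 in limma) and missed with LPS + Beta-Ac (0.75, adjusted p 0.0827). These 2 groups overlapped for EGFR, and the pass with LPS held in 1 of 7 fits that left out 1 animal.

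**Figure D1:**
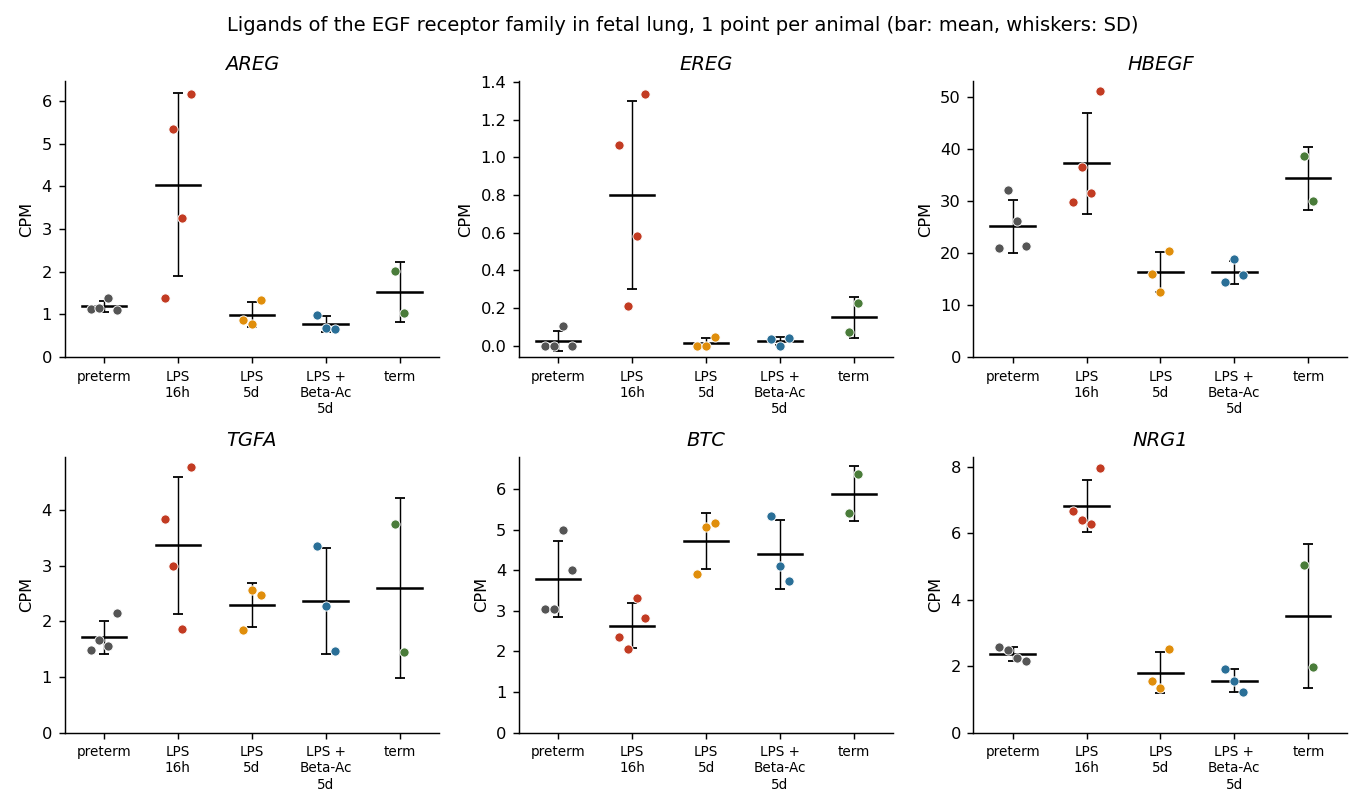
Level of the 6 ligand genes (y axis, CPM) in the 5 groups (x axis), with 1 point per animal, a bar at the mean and whiskers of 1 SD. AREG, EREG and NRG1 have their highest mean in the LPS 16h animals (NRG1 at 6.27 to 7.97 CPM against 2.15 to 2.57 CPM in preterm controls), and HBEGF is lowest in both 5 day groups.

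AREG (ENSMMUG00000002314) encodes amphiregulin, a ligand of EGFR made by epithelium and by several leukocytes. Its level was 1.13, 1.16, 1.38 and 1.09 CPM in the 4 preterm controls. In the LPS 16h animals it was 1.39, 5.34, 3.26 and 6.17 CPM. The ranges of both groups met without overlapping, since the lowest LPS 16h animal (026) stood at the level of the highest preterm control, and the other 3 LPS 16h animals were well above it. The mean rose from 1.19 ± 0.131 CPM (SD, n = 4) to 4.04 ± 2.15 CPM (SD, n = 4), a log2 fold change of 1.51 ± 0.38 (SE) with an adjusted p of 0.00556. At 5 days AREG was back in or under the range of the controls, at 0.871, 0.768 and 1.33 CPM with LPS. With LPS + Beta-Ac it was 0.979, 0.688 and 0.655 CPM. All 3 LPS + Beta-Ac animals were below all preterm controls, but the log2 difference of -0.59 (95% interval -1.47 to 0.28) had an adjusted p of 0.364.

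EREG (ENSMMUG00000058506) encodes epiregulin, a ligand of EGFR and ERBB4, and was close to absent without recent LPS. Preterm controls had 0, 0, 3 and 0 counts. The LPS 16h animals had 30, 8, 25 and 46 counts, or 1.07, 0.213, 0.583 and 1.34 CPM. Every LPS 16h animal was above every preterm control, and 0 counts in a library allow up to 3 counts of it. The pooled CPM was 25.5 times that of the preterm controls, with an interval of 8.5 to 126 from counting error alone. The fitted log2 fold change was 3.06 with an adjusted p of 0.000407, but its size depends on the prior count added to low values and on depth: it was 4.55 with a prior count of 0.5 and 2.14 in thinned libraries. No animal outside LPS 16h reached the minimum of 0.371 CPM in the filter. It had 1 count over the 3 LPS 5d animals, 2 counts over the 3 LPS + Beta-Ac animals and 9 counts over both term controls.

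NRG1 (ENSMMUG00000000208) encodes neuregulin 1, the ligand of ERBB3 and ERBB4. It was 2.57, 2.50, 2.24 and 2.15 CPM in preterm controls. In LPS 16h animals it was 6.68, 6.402, 6.27 and 7.97 CPM. The groups did not overlap, and the LPS 16h animals also lay above all animals of the other groups. The log2 fold change was 1.502 ± 0.26 (SE), or 2.83-fold, with an adjusted p of 0.000368. At 5 days NRG1 was 1.56, 1.34 and 2.52 CPM with LPS. It was 1.92, 1.56 and 1.23 CPM with LPS + Beta-Ac. The LPS + Beta-Ac animals were all below the preterm controls, with a log2 difference of -0.59 (95% interval -1.19 to 0.02) and an adjusted p of 0.181. The 2 term controls stood far apart, at 5.04 CPM in animal 200 and 1.97 CPM in animal 201.

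HBEGF (ENSMMUG00000060742) encodes heparin-binding EGF-like growth factor, a ligand of EGFR and ERBB4. It was 21, 32.0, 26.0 and 21.2 CPM in preterm controls. It was 29.7, 36.5, 31.5 and 51.0 CPM in LPS 16h animals. The groups overlapped, because preterm control 101 was above 2 of the LPS 16h animals. The log2 fold change was 0.56 ± 0.20 (SE) with an adjusted p of 0.037, which was no longer below 0.05 without LPS 16h animal 038 or without any 1 of the preterm controls 092, 113 and 209 (0.0566 to 0.126). At 5 days the direction was the other one. HBEGF was 16.0, 12.6 and 20.3 CPM with LPS, and 14.5, 18.7 and 15.6 CPM with LPS + Beta-Ac. All 6 of these animals were below all 4 preterm controls, and the log2 differences of -0.63 (adjusted p 0.0631) and -0.61 (adjusted p 0.0637) missed the threshold. The term controls, at 38.6 and 30.0 CPM, were in or above the range of the preterm controls.

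TGFA (ENSMMUG00000010591) encodes transforming growth factor alpha, a ligand of EGFR. Its level was 1.48, 1.66, 1.56 and 2.15 CPM in preterm controls. It was 3.84, 2.99, 1.87 and 4.77 CPM in LPS 16h animals. Animal 035 was within the range of the controls and the other 3 LPS 16h animals were above it. The log2 fold change was 0.88 ± 0.33 (SE) with an adjusted p of 0.048. The adjusted p was no longer below 0.05 in 6 of the 8 fits that left out 1 animal (highest 0.144), and without animal 035 the gene was called, at a log2 fold change of 1.13 (adjusted p 0.0164). At 5 days TGFA was 1.85 to 2.57 CPM with LPS and 1.46 to 3.35 CPM with LPS + Beta-Ac, overlapping the controls.

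BTC (ENSMMUG00000055714) encodes betacellulin, a ligand of EGFR and ERBB4, and was the ligand whose level was lower at 16 hours. It was 3.05, 3.05, 5.00 and 4.001 CPM in preterm controls and 2.35, 2.05, 3.31 and 2.82 CPM in LPS 16h animals. The groups overlapped in 1 animal (035), and the log2 difference of -0.50 had an adjusted p of 0.0693, or 0.0424 without that animal. In the 5 day groups BTC was 3.92 to 5.17 CPM with LPS and 3.74 to 5.35 CPM with LPS + Beta-Ac, within or just above the range of the controls. The 2 term controls, at 5.40 and 6.37 CPM, were above all other animals.

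At an adjusted p below 0.05, ERBB3 was higher than in preterm controls in all 3 groups given LPS, EGFR was higher with LPS 5d, and ERBB2 was lower at 16 hours. None of these differences reached 2-fold, and no receptor was called against preterm controls. Those of EGFR and ERBB2 no longer passed in most fits that left out 1 animal.

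**Figure D2:**
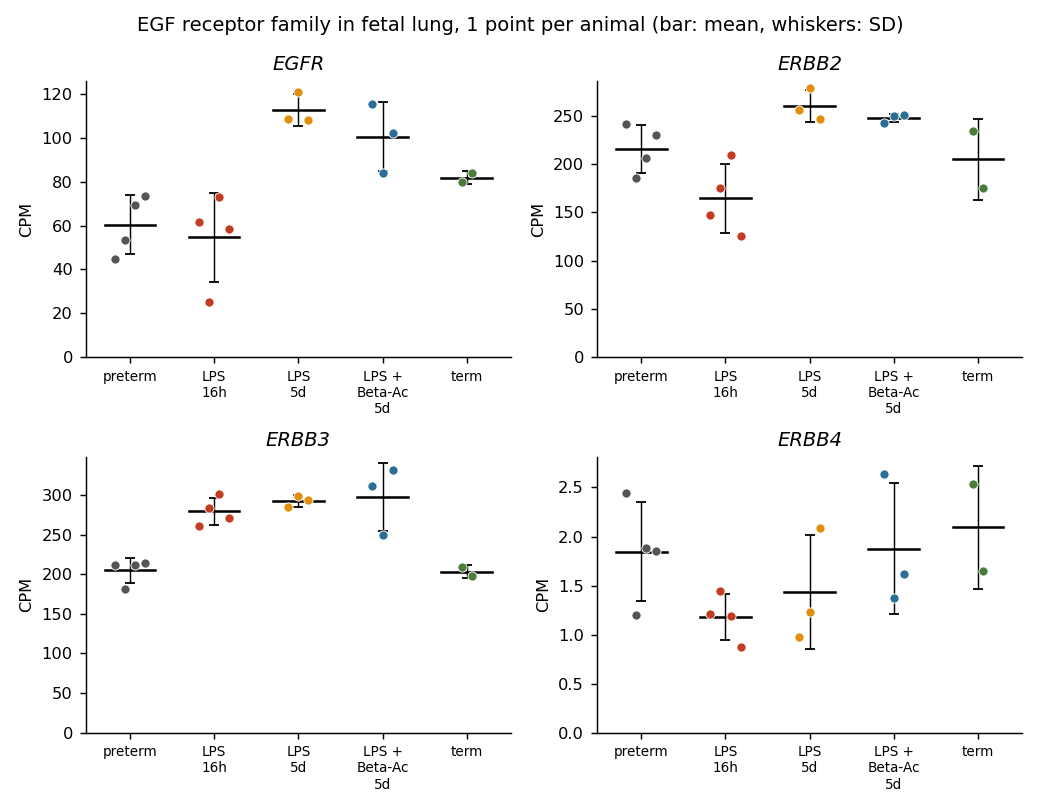
Level of the 4 receptor genes (y axis, CPM) in the 5 groups (x axis), with 1 point per animal, a bar at the mean and whiskers of 1 SD. The LPS 5d animals have the highest mean EGFR (113 CPM), the ERBB3 points of all 3 LPS groups lie above those of both control groups, and the ERBB4 range of each group overlaps that of the preterm controls.

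EGFR (ENSMMUG00000022394) is the receptor of most of the ligands above. Its level was 45.0, 53.6, 69.5 and 73.6 CPM in preterm controls. It was 109, 121 and 109 CPM in the LPS 5d animals, and 116, 84.0 and 103 CPM in the LPS + Beta-Ac animals. Both 5 day groups were above all preterm controls. With LPS 5d the log2 fold change was 0.93 ± 0.28 (SE) with an adjusted p of 0.0386. Leaving out 1 animal at a time, the adjusted p stayed below 0.05 in 1 of 7 fits, the one without preterm control 209, where the gene was called at a log2 fold change of 1.03 (0.0325). In the other 6 fits it was 0.054 to 0.127. With LPS + Beta-Ac the log2 difference was 0.75 with an adjusted p of 0.0827. At 16 hours EGFR was 61.5, 25.3, 73.1 and 58.6 CPM. Animal 029 was the lowest of all 16 and the other 3 lay within the range of the preterm controls, so that the log2 difference of -0.22 (adjusted p 0.537) became 0.14 without that animal.

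ERBB2 (ENSMMUG00000001348) is the partner receptor. It was 241, 186, 207 and 230 CPM in preterm controls. It was 148, 175, 209 and 126 CPM at 16 hours. The groups overlapped, with LPS 16h animal 035 among the controls and the other 3 below them. The log2 change of -0.41 ± 0.14 (SE) had an adjusted p of 0.0329, which was no longer below 0.05 in 5 of 8 fits that left out 1 animal (highest 0.112). At 5 days all animals were above all preterm controls, at 246 to 279 CPM with LPS and 243 to 251 CPM with LPS + Beta-Ac. The differences were small, at log2 values of 0.27 (adjusted p 0.271) and 0.21 (adjusted p 0.407).

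ERBB3 (ENSMMUG00000020758), the receptor of NRG1, was the receptor whose difference passed the test in all 3 groups given LPS. It was 212, 182, 212 and 214 CPM in preterm controls. It was 261, 283, 301 and 271 CPM at 16 hours, 284, 298 and 294 CPM in LPS 5d animals, and 312, 249 and 332 CPM in LPS + Beta-Ac animals. None of the 10 animals given LPS overlapped the preterm controls. In that order the log2 fold change with its SE was 0.45 ± 0.097 (adjusted p 0.00196), then 0.52 ± 0.105 (adjusted p 0.00443), then 0.53 ± 0.105 (adjusted p 0.00273). These adjusted p values remained below 0.05 without any 1 animal (highest 0.0255). The term controls, at 209 and 197 CPM, lay within the range of the preterm controls, at a log2 difference of -0.01 (95% interval -0.26 to 0.24).

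ERBB4 (ENSMMUG00000001674), a receptor of neuregulins and of some EGFR ligands, was 1.20 to 2.44 CPM in preterm controls and 0.873 to 1.44 CPM in LPS 16h animals. These groups overlapped, and the log2 difference of -0.60 (95% interval -1.22 to 0.03) had an adjusted p of 0.123. In the other groups it was 0.980 to 2.64 CPM. No comparison gave an adjusted p below 0.05 for this gene.

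The time after LPS was compared directly, LPS 16h against LPS 5d, where 14.6% of all genes tested were called and 35% had an adjusted p below 0.05 at any fold. Of the 10 genes 5 were called and 7 passed at any fold. EREG is in both counts, but it passed the filter on low values only through the LPS 16h animals and so had to differ. With a minimum of 1 CPM in 3 animals, EREG was not tested and 4 of 9 were called, beside 15% of all genes tested. AREG, EREG, HBEGF and NRG1 were higher at 16 hours, with HBEGF at a log2 difference of 1.18 ± 0.21 (SE, adjusted p 0.000528), AREG at 1.79 ± 0.41 (adjusted p 0.00316) and NRG1 at 1.92 ± 0.28 (adjusted p 9.764e-05). EREG had 109 counts over the 4 LPS 16h animals and 1 over the 3 LPS 5d animals, a ratio of pooled CPM of 57 with a counting interval of 10 to 2270. EGFR was lower at 16 hours, at -1.15 ± 0.28 (adjusted p 0.00526), and this difference was under 2-fold without animal 029 (-0.81, adjusted p 0.00238). ERBB2 at -0.69 (adjusted p 0.00278) and BTC at -0.84 (adjusted p 0.00878) were lower by less than 2-fold. The groups did not overlap for any of these 7 genes, EREG among them, as for 40% of all genes tested. They overlapped for ERBB3, ERBB4 and TGFA.

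**Figure D3:**
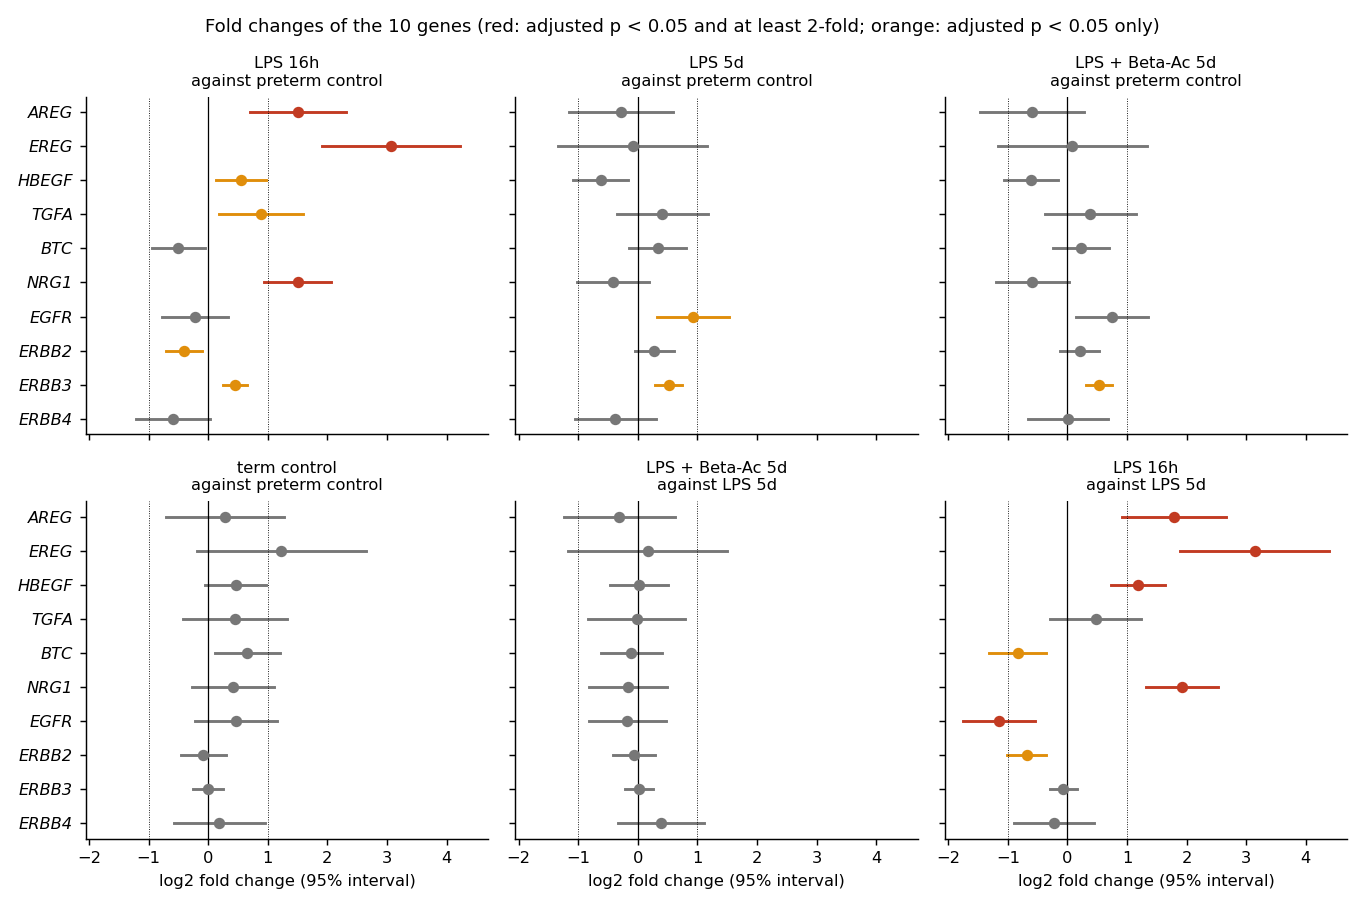
Log2 fold change with its 95% interval (x axis) of the 10 genes (y axis) in 6 comparisons, in red for called genes and in orange for genes with an adjusted p below 0.05 and under 2-fold. AREG, EREG and NRG1 are called in LPS 16h against preterm controls, 5 genes are called in LPS 16h against LPS 5d, and no gene is called in the other 4 comparisons. The size for EREG depends on the prior count, and EREG passed the filter on low values only through the LPS 16h animals.

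At 5 days the background was lower. In LPS 5d against preterm controls 4.83% of all genes tested were called and 14.7% passed at any fold, and of the 10 genes 0 were called and 2 (EGFR and ERBB3) passed at any fold. At an unadjusted limma p below 0.05 there were 3, with HBEGF as the third. In LPS + Beta-Ac 5d against preterm controls 6.5% were called and 17.3% passed at any fold, and of the 10 genes 0 were called and 1 (ERBB3) passed, with 3 (EGFR, ERBB3 and HBEGF) at an unadjusted p below 0.05. limma with voom weights also called 0 of the 10 in each of these comparisons. Without regard to the test, the animals stood apart from all preterm controls for 4 genes with LPS (EGFR, ERBB2, ERBB3 and HBEGF) and for 6 genes with LPS + Beta-Ac (these 4, AREG and NRG1). Over all genes tested the groups did not overlap for 29.2% and 30.8%, and nothing is read from these counts about the members.

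The addition of Beta-Ac to LPS was tested by LPS + Beta-Ac 5d against LPS 5d, where 0.104% of all genes tested were called and the same 0.104% passed at any fold. Of the 10 genes 0 were called by limma, with or without voom weights, and 0 had an unadjusted p below 0.05. The groups overlapped for all 10, and they did not overlap for 11.4% of all genes tested. The log2 differences ran from -0.31 (AREG, 95% interval -1.25 to 0.62) to 0.39 (ERBB4, 95% interval -0.33 to 1.11). The interval was narrowest for ERBB3, at -0.22 to 0.25 around 0.02, and for ERBB2, at -0.42 to 0.28 around -0.07. For HBEGF it was -0.47 to 0.51 and for EGFR -0.82 to 0.47. A 2-fold difference lay outside the interval for 7 of the 10 genes and inside it for AREG, EREG and ERBB4.

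Normal development was measured by term against preterm controls, with 2 term animals, where 2.07% of all genes tested were called and 3.99% passed at any fold. Of the 10 genes 0 passed at any fold by limma, 0 were called with voom weights, and 1 (BTC) had an unadjusted p below 0.05. BTC was higher in both term controls, at a log2 difference of 0.66 (95% interval 0.12 to 1.20) with an adjusted p of 0.168. EGFR was 79.9 and 84.0 CPM, above all preterm controls, with a log2 difference of 0.47 and an adjusted p of 0.476. The term animals lay apart from each other for TGFA (3.75 CPM in animal 200 and 1.45 CPM in animal 201) and AREG (2.02 and 1.03 CPM), as for NRG1.

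The 5 groups were ordered alike for several ligands. AREG, EREG, HBEGF, TGFA and NRG1 had their highest mean in LPS 16h and the next in term controls, and these 2 groups overlapped for the first 4 genes and stood apart for NRG1. HBEGF had 1 break, between preterm controls and LPS 5d, and the other neighbouring groups in these orders overlapped. For AREG, TGFA and NRG1 the second place of the term controls rests on animal 200. Without that animal the log2 difference of term from preterm controls was -0.19 for AREG, -0.21 for TGFA and -0.25 for NRG1. BTC, EGFR, ERBB2 and ERBB4 had their lowest mean in LPS 16h. In their orders 1 pair of neighbours did not overlap for EGFR (term above preterm controls), for ERBB2 (LPS + Beta-Ac above preterm controls) and for BTC (term above LPS 5d), and none for ERBB4. ERBB3 was ordered by exposure, with the 3 LPS groups above both control groups and its 1 break between LPS 16h and the preterm controls.

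Genes on both sides of the receptors were counted in lists written from general knowledge. Earlier results of these data were known when the lists were written, so the counts and medians of the lists are a description and not independent of these data. At 16 hours, where 14.4% of all genes tested were called, the called share was near or below that in the lists for shedding, inhibition and signal transduction, and these counts are no result about the lists. Among 5 other ligands of the family, 1 was called at 16 hours, EGF itself, at 0.567 ± 0.415 CPM (SD, n = 4) against 0.0854 ± 0.0495 CPM (SD, n = 4) in preterm controls, with a log2 fold change of 1.91 and an adjusted p of 0.0167. These are few counts, as for EREG. EGF was also called higher at 16 hours than at 5 days after LPS, and EPGN, NRG2, NRG3 and NRG4 were not called in any comparison. At 5 days, at term and between LPS + Beta-Ac and LPS none of the 5 was called. In those comparisons 0.104% to 6.5% of all genes tested were called, and nothing is read from these counts.

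Of 7 genes for shedding and trafficking of the ligands, 1 was called at 16 hours. RHBDF2, which encodes the pseudoprotease iRhom2 that brings ADAM17 to the cell surface, rose from 17.7 ± 12.2 CPM to 85.7 ± 24.0 CPM (SD, n = 4 each), a log2 fold change of 2.44 (adjusted p 5.06e-05). The protease genes ADAM17 and ADAM10 were not called in any comparison, and the median log2 fold change of the list was 0.39 beside -0.09 for all genes tested. At 5 days CNIH1, a carrier of ligand precursors out of the endoplasmic reticulum, fell from 73.4 ± 9.63 CPM (SD, n = 4) to 35.2 ± 4.75 CPM with LPS and 34.3 ± 0.694 CPM with LPS + Beta-Ac (SD, n = 3 each), or -1.06 (adjusted p 0.000292) and -1.09 (adjusted p 6.95e-05) on the log2 scale. RHBDF2 was still called higher with LPS + Beta-Ac, at 1.10 (adjusted p 0.0484). In LPS 16h against LPS 5d, where 14.6% of all genes tested were called, 3 of the 7 were called, all higher at 16 hours: RHBDF2, TMED10 and RHBDL2.

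Of 17 genes for inhibition and turnover of the receptors 16 had a row and were tested. At 16 hours 2 were called, both higher. PTPRJ, a receptor phosphatase that acts on EGFR, rose from 11.8 ± 2.01 CPM to 51.2 ± 21.3 CPM, and ERRFI1, the feedback inhibitor of the EGFR kinase, from 150 ± 33.7 CPM to 397 ± 73.5 CPM (SD, n = 4 each), or 2.01 (adjusted p 2.67e-05) and 1.41 (adjusted p 0.000143) on the log2 scale. At 5 days SPRY4 and SPRED1, inhibitors of RAS and ERK signalling, fell with LPS by 1.25 and 1.17 on the log2 scale (adjusted p 0.00206 and 0.0038) and with LPS + Beta-Ac by 1.03 and 1.03 (adjusted p 0.00516 and 0.00627). PTPRJ was called higher with LPS + Beta-Ac, at 1.55 (adjusted p 0.00168). The ubiquitin ligases CBL, CBLB and CBLC and the LRIG genes were not called in any comparison. The median of the list was -0.10 at 16 hours, -0.07 with LPS 5d and -0.17 with LPS + Beta-Ac, near the median of all genes tested (-0.09, -0.002 and -0.01).

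Of 21 signal transduction genes 1 was called at 16 hours. STAT3, a transcription factor downstream of the receptors and also of cytokines of the interleukin 6 family, rose from 130 ± 17.4 CPM to 531 ± 128 CPM (SD, n = 4 each), a log2 fold change of 2.01 (adjusted p 3.48e-07). Against preterm controls none of the 21 was called with LPS 5d, with LPS + Beta-Ac or at term. Of all genes tested 4.83%, 6.5% and 2.07% were called there, and nothing is read from these counts.

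Of 15 genes known to respond to ERK, 8 were called higher and 1 lower at 16 hours, where 14.4% of all genes tested were called in either direction. The list median was 2.21 beside -0.09 for all genes tested. The largest changes were in LIF, a cytokine of the interleukin 6 family, at a log2 fold change of 5.40 (adjusted p 5.97e-06), in the immediate early gene IER3 at 4.05 (1.48e-06) and in PTGS2, the inducible cyclooxygenase, at 3.58 (4.51e-09). These genes also respond to inflammatory signals other than the EGF receptors. CCND1, which encodes cyclin D1, fell from 535 ± 31.1 CPM to 233 ± 23.5 CPM (SD, n = 4 each), at -1.20 (4.47e-06). The other 6 genes were not called, and by sign 11 of the 15 were higher and 4 lower. Among the uncalled genes DUSP6 had a mean of 198.5 CPM at 16 hours against 206 CPM in preterm controls. ETV5 had 141 against 161 CPM, ETV4 2.91 against 4.61 CPM and DUSP4 14.45 against 15.78 CPM. The response was therefore not shared by the whole list. At 5 days the called genes were lower, 3 of 15 with LPS and 2 of 15 with LPS + Beta-Ac, beside 4.83% and 6.5% of all genes tested. The transcription factors ETV4 and ETV5, which also follow FGF receptors, fell in both 5 day groups by 1.04 to 1.15 on the log2 scale (adjusted p 0.00105 to 0.0224), and the ERK phosphatase DUSP6 fell with LPS 5d from 206 ± 81.2 CPM (SD, n = 4) to 88.4 ± 37.1 CPM (SD, n = 3), at -1.20 (adjusted p 0.0279). At term FOS and EGR1, immediate early genes, were called higher at 5.16 (adjusted p 0.036) and 3.19 (adjusted p 0.0356), with animals that differed widely within both groups (FOS at 5.11 to 128 CPM in preterm controls and 587 to 1580 CPM at term). None of the 15 was called between LPS + Beta-Ac and LPS at 5 days, beside 0.104% of all genes tested. Of the 15, 8 were called higher at 16 hours than at 5 days after LPS, where 14.6% of all genes tested were called.

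**Figure D4:**
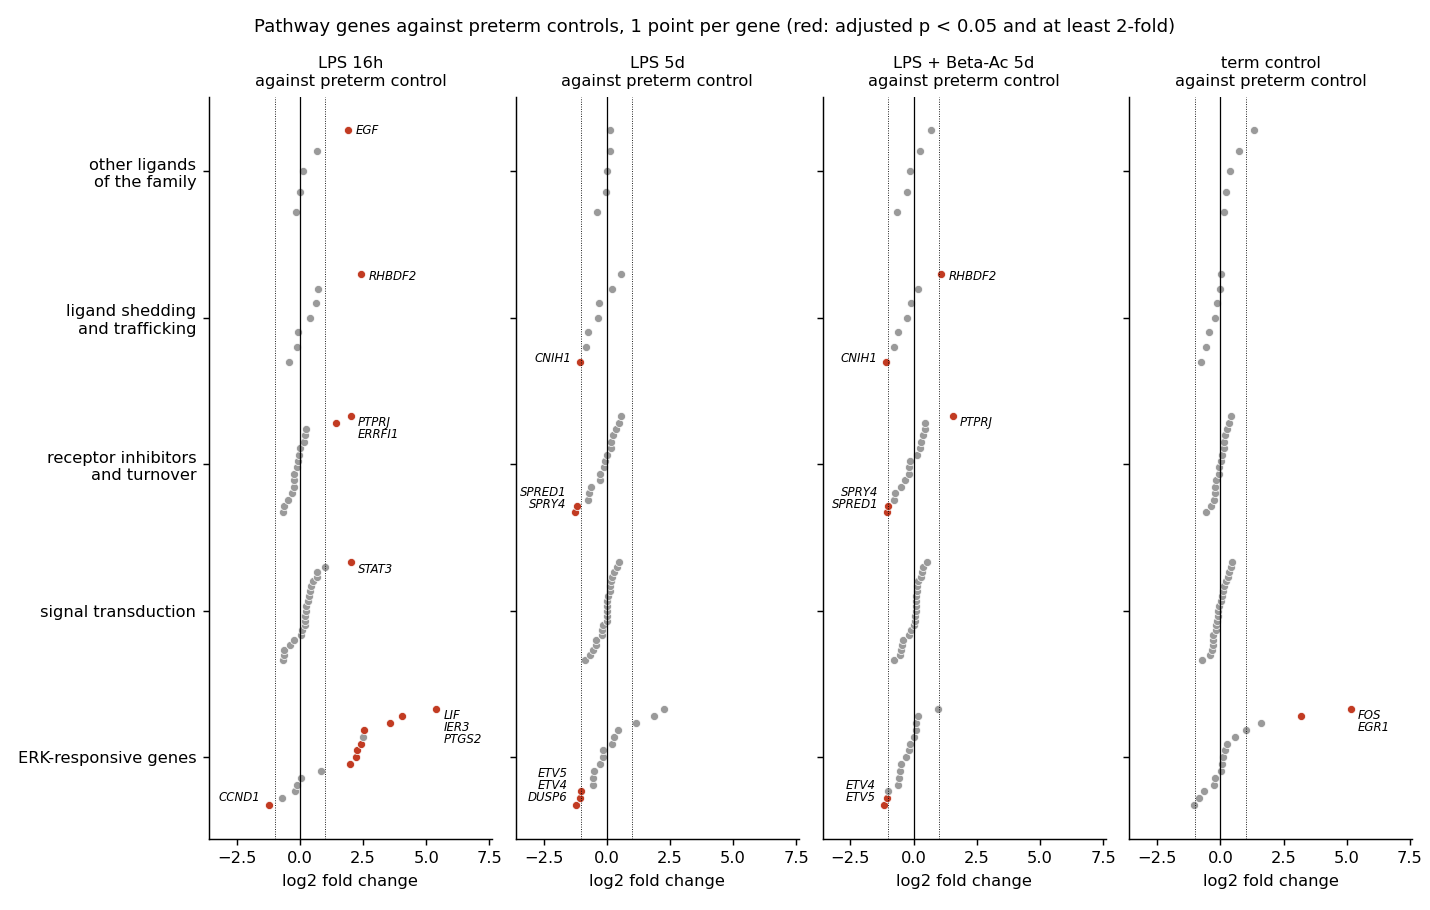
Log2 fold change against preterm controls (x axis) of each gene of 5 lists (y axis) in 4 comparisons, with called genes in red and up to 3 of them named per list and direction. At 16 hours, where 14.4% of all genes tested are called, 8 of 15 ERK-responsive genes are called higher. At 5 days the called genes of the lists are mostly lower (SPRY4, SPRED1, ETV4, ETV5, DUSP6 and CNIH1).

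Several markers of neutrophils and of macrophages and monocytes were higher at 16 hours, where 14.4% of all genes tested were called. Of 6 neutrophil markers 3 were called higher, and their summed level was 1316 to 2076 CPM in LPS 16h animals against 16.6 to 49.7 CPM in preterm controls, 64.4 to 112 CPM with LPS 5d, 151 to 340 CPM with LPS + Beta-Ac and 98.2 to 130 CPM at term. At 16 hours most of the sum was S100A9 (958 CPM on average), S100A8 (505 CPM) and CSF3R (143 CPM), and MPO, CXCR2 and ELANE were not called, at log2 differences of 0.26, 0.09 and -0.84. Of 8 macrophage and monocyte markers 6 were called higher, with sums of 864 to 981 CPM against 131 to 252 CPM in preterm controls, 238 to 267 CPM, 405 to 752 CPM and 238 to 381 CPM in the other groups in that order. The macrophage receptor MARCO was at 0 in all preterm controls, and no other marker of any list was at 0 throughout a group. Of 6 lymphocyte markers 1 was called higher at 16 hours, and of 4 mast cell markers 1 was called higher. By sign 2 of the mast cell markers were higher and 2 lower, and nothing is read from the counts of these 2 lists. Leukocytes can make AREG, EREG and HBEGF, and RHBDF2 and PTPRJ are high in myeloid cells. The part of incoming leukocytes in these values was not tested.

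Markers of the cells that carry the receptors or make NRG1 were counted as well. Of all genes tested 14.4% were called at 16 hours, 4.83% with LPS 5d and 6.5% with LPS + Beta-Ac, against preterm controls. The epithelial, fibroblast and Schwann cell lists had 1 called gene each at 16 hours, and nothing is read from those counts. The summed level of 7 epithelial markers was 694 to 928 CPM in preterm controls, 786 to 1257 CPM at 16 hours, 1081 to 1274 CPM with LPS 5d, 975 to 1257 CPM with LPS + Beta-Ac and 748 to 1109 CPM at term. At 16 hours 1 of the 7 was called higher (ELF3). By the sign of the log2 fold change 2 of the 7 were higher and 5 lower at 16 hours, with a list median of -0.235. With LPS 5d the same 1 was called, and 6 of the 7 were higher and 1 lower. Of 6 markers of type 1 alveolar cells 4 were called lower at 16 hours, with a sum of 880 to 1049 CPM against 1762 to 2299 CPM in preterm controls, and 0 were called in either 5 day group. Of 8 markers of type 2 alveolar cells 4 were called higher at 16 hours, with a sum of 7956 to 15160 CPM against 5752 to 8873 CPM. With LPS 5d 2 were called higher and 1 lower (sum 11630 to 18490 CPM). With LPS + Beta-Ac 4 were called higher and 1 lower (13630 to 18600 CPM). At term, with 2 animals and 2.07% of all genes tested called, 0 were called (12950 to 14660 CPM), and nothing is read from that count. By sign 7 of the 8 were higher at term and 1 lower. The list median of the log2 fold change was 0.81 at term and 0.89 with LPS 5d. Of 5 fibroblast markers, for the cells that make NRG1 in the lung, 1 was called lower at 16 hours, and none was called higher. Of 4 Schwann cell markers, another known source of NRG1, 1 was called lower and none higher. The part of these cell types in the levels of EGFR, ERBB2, ERBB3 and NRG1 was not tested.

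The genes whose log2 CPM was most like that of a member over the 16 animals were named as a description, the first 3 by Pearson r among the other genes with a symbol and a mean of at least 1 CPM. The animals share their groups, and the LPS 16h animals also their depth, so a high r can follow from the contrast between groups. NRG1 was most like VAPA (0.943), MCL1 (0.935) and PTGS2 (0.927). HBEGF was most like ADAMTS1 (0.916), KLF6 (0.892) and PRORP (0.892). AREG was most like CCL26 (0.942), a chemokine gene, and then MTO1 and IQCB1 (0.934 each). EGFR was most like DDX17 (0.958), HEATR5A (0.954) and AFDN (0.95). ERBB2 was most like GNB1L (0.951), GPC1 (0.938) and WWP2 (0.928). BTC was most like LIMCH1 (0.929), NEBL (0.9) and EPB41L5 (0.897). The highest values were lower for TGFA (SERPINA1, 0.838) and ERBB4 (AOC1, 0.803), and for EREG (SAR1B, 0.956) they rest on the few counts outside LPS 16h.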

How the data were processed

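Lung RNA of 16 rhesus macaque fetuses was measured by RNA sequencing. The authors read poly(A) RNA as 75 bp paired ends, assigned the reads with kallisto to rhesus build Mmul_10 and, for their own comparisons, the authors used DESeq2. Their versions and annotation release are not given in the sources used. The paper names a column kit for RNA extraction and the labels name Trizol. The authors deposited a table of whole-number counts, 1 per Ensembl gene in each animal, with no normalization. An automatic check could not read the layout of the table, so its unit was recorded as other. No count model was run, and limma was the planned test.

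Symbols came from a table of Ensembl IDs, in which 5259 IDs of the count table have no symbol. Genes with at least 0.371 CPM (10 counts in the median library) in 2 animals and 15 counts in total were tested. Counts were scaled by TMM (30% of log ratios and 5% of mean values trimmed) with a function written for this purpose, turned into log2 CPM (prior count 2), and fitted in R 4.3.3 with limma 3.58.1 (trend and robust options), with 1 mean for each of 5 groups, in 6 comparisons. Tests were two-sided. Groups followed the labels, which give no sex, batch or pairing. The steps were checked on simulated data, with large planted changes of a single size in genes above a minimum level and the same spread for all genes. That check does not cover smaller changes or genes as low as EREG. Over all genes, replicate pairs differed by more than counting error (chi-square per degree of freedom 31.1 to 166.1). The highest values, 121.6, 138.3 and 166.1, were all of pairs with LPS 16h animal 029. The other LPS 16h pairs were at 69.16 to 81.18. For members with few counts, such as AREG, EREG and NRG1, counting error also limits precision. Intervals from counts cover counting error only.

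The genes, lists and tests were chosen with earlier results of these data known. Named were all 10 members, at most the 3 called genes with the largest change per pathway list and direction, and the 3 genes most like each member, which for ERBB3 are not reported here. Genes not called were named after their values were seen. SOCS4 and KRT8 of the lists had no row. Alternatives were limma with voom weights, median-of-ratios scaling, other filters, a prior count of 0.5, no robust option, only the 2 groups compared, no fold limit, each animal left out in turn, and, added after seeing the data, thinned libraries.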

Additional observations from a re-analysis of the deposited data

Results flagged for a closer look

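In 4 preterm controls, 1 animal stood apart from the other 3 for a pair of genes. For ERBB3 it was animal 101, the lowest at 182 CPM, whose gap to the next animal was 0.923 of the range of the group. For EREG it was animal 113, with 3 counts where the others had 0, a gap of 1 of the range. With the others at 0, any count in animal 113 would give that gap. Dixon's limit for 4 animals flags about 1 in 20 groups by chance, and 20 groups were looked at, with 2 flags. That rate is for continuous values and does not hold for EREG.

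The effect of LPS against preterm controls differed between 16 hours and 5 days for 7 of the 10 genes, by limma's test of the difference, which is LPS 16h against LPS 5d since the controls cancel. The 16 hour effect minus the 5 day effect, on the log2 scale, was 1.92 for NRG1 (adjusted p 9.764e-05), 3.15 for EREG (0.000678), 1.79 for AREG (0.00316) and 1.18 for HBEGF (0.000528). It was -1.15 for EGFR (0.00526), -0.84 for BTC (0.00878) and -0.69 for ERBB2 (0.00278). Single animals did not end any of these at an adjusted p below 0.05. For HBEGF both effects had opposite signs, at 0.56 and -0.63. The value for EREG depends on the prior count. EREG also passed the filter on low values only through the LPS 16h animals and so had to differ. In LPS 16h against LPS 5d 35% of all genes tested had an adjusted p below 0.05 at any fold.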

How the results depend on the processing

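No paired analysis was possible because the groups share no animals and the labels give no pairing. The same 3 genes were called in LPS 16h against preterm controls with voom weights, median-of-ratios scaling, no filter, only those 2 groups and thinned libraries. With a minimum of 1 CPM in 3 animals EREG was not tested and 2 were called. With no fold limit 7 genes passed in that comparison, 2 in LPS 5d and 1 in LPS + Beta-Ac 5d against preterm controls. Leaving out 1 animal gave 3 to 4 calls at 16 hours (TGFA added without animal 035) and 0 to 1 in LPS 5d (EGFR called without animal 209). In LPS 16h against LPS 5d it gave 4 to 5 calls (EGFR lost without animal 029). Scaling moved the median of all genes at 16 hours from -0.087 to -0.045.

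Uncalled log2 differences near 0 changed sign. ERBB4 in LPS + Beta-Ac 5d against preterm controls was 0.01, -0.0014 with voom weights and -0.083 in thinned libraries. ERBB3 at term was -0.01, 0.014 with median-of-ratios scaling, 0.033 with only 2 groups and 0.0081 in thinned libraries. TGFA in LPS + Beta-Ac against LPS was -0.02 and 0.030 in thinned libraries. The causes were not tested. With 1 animal left out, EGFR ran from -0.40 to 0.14 at 16 hours, EREG from -0.34 to 0.25 with LPS 5d and from -0.027 to 0.42 with LPS + Beta-Ac, and ERBB4 from -0.25 to 0.22 with LPS + Beta-Ac, all against preterm controls. At term the ranges were -0.29 to 0.13 for ERBB2, -0.066 to 0.0318 for ERBB3, -0.11 to 0.49 for ERBB4, -0.19 to 0.74 for AREG, -0.21 to 1.11 for TGFA and -0.25 to 1.07 for NRG1. For LPS + Beta-Ac against LPS they were -0.0677 to 0.13 for ERBB3, -0.15 to 0.19 for HBEGF, -0.30 to 0.28 for TGFA and -0.35 to 0.0903 for NRG1, and for LPS 16h against LPS 5d -0.44 to 0.076 for ERBB4. With 2 term animals, 1 left out leaves a lone sample assumed to vary like the other groups.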
